A study of Mus musculus with 139 samples.

Results

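The genes described here are 40 genes that mark tissues lying around or supplying the sensory hair cells of the cochlea: 6 of neurons, 6 of glia, 5 of red blood cells, 10 of immune cells and 13 of connective tissue and bone. Their Ensembl gene identifiers were matched to symbols, and each of the 40 found 1 row among the 55335 rows of the count table. The counts come from cells of mouse cochleae at postnatal day 14 to 16, each library being a single cell. There were 21 apical, 23 middle and 8 basal outer hair cells (OHCs), 52 in all, and 34 apical, 34 middle and 19 basal inner hair cells (IHCs), 87 in all. The labels give no strain, genotype, treatment or animal for any group, so each group counts as 1 sample, cells are not replicates of it, and no difference between groups was tested. The series was made to compare what hair cells along the cochlea are composed of, and the genes followed here are those that a hair cell is not known for.

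Hair cells turn the vibration of sound into electrical signals. IHCs pass the signal on to fibres of the auditory nerve, whose axons are filled with neurofilaments and wrapped in myelin by glia, while OHCs amplify the vibration. Both kinds sit among supporting cells in the organ of Corti, near capillaries, the collagen-rich spiral ligament and the bony wall. Globins make up most of the messenger RNA of young red blood cells, and S100a8 and S100a9 are the abundant calcium-binding proteins of neutrophils.

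Total counts per cell ran between 71027 and 13576942, with a median of 4804177, and the cells had reads on 681 to 27575 genes. The basal OHCs were the smallest pool, at 28574809 counts, of which 1 cell held 30.9%. The largest Pearson correlation of log2 CPM between any pair of cells was 0.745 and no columns were identical, so no cell was treated as a copy of another. Titles end in a number, which is 100 or less for 81 cells and above 100 for 58, and the labels do not say what it stands for. The title of an apical IHC repeats the number of another apical IHC with a further suffix, and both cells were kept. Median totals were 7187428.5 counts in the higher-numbered cells and 3186039 in the lower-numbered cells. The labelled type was clear for IHCs: Otof, the calcium sensor of their synapse, had medians of 35.5, 2.90 and 0 CPM (the count as a share of the cell's total, per 1000000) in apical, middle and basal OHCs, against 4120.3, 3204 and 5728 in the IHCs. For OHCs it was weak outside the apex. Ocm, a calcium buffer, had medians of 4711, 127 and 37.8 CPM in apical, middle and basal OHCs, and the OHC motor gene Slc26a5 had 315, 1.72 and 0.253. In the IHCs Ocm had medians of 55.8, 1.19 and 0 CPM, and Slc26a5 had 0 in each region.

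Genes of all 5 tissues were read in these cells, and the tissues differed in how widely they were spread. Connective tissue genes held 0.529% of all counts, red blood cell genes 0.206%, neuron genes 0.178%, immune genes 0.121% and glia genes 0.0717%. Col1a1, a chain of collagen I, was read in 137 cells, the most of any member, and Prph, the neurofilament-like protein peripherin, in 16, the fewest. Of the 40 members 18 were read in at least 50% of cells, and 22 had a median of 0 CPM. The counts of the neuron and connective lists were spread over many cells, with 50% of them in 19 and 22 cells. By contrast 50% of the red blood cell counts lay in 5 cells and 50% of the immune counts in 2.

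**Figure D1:**
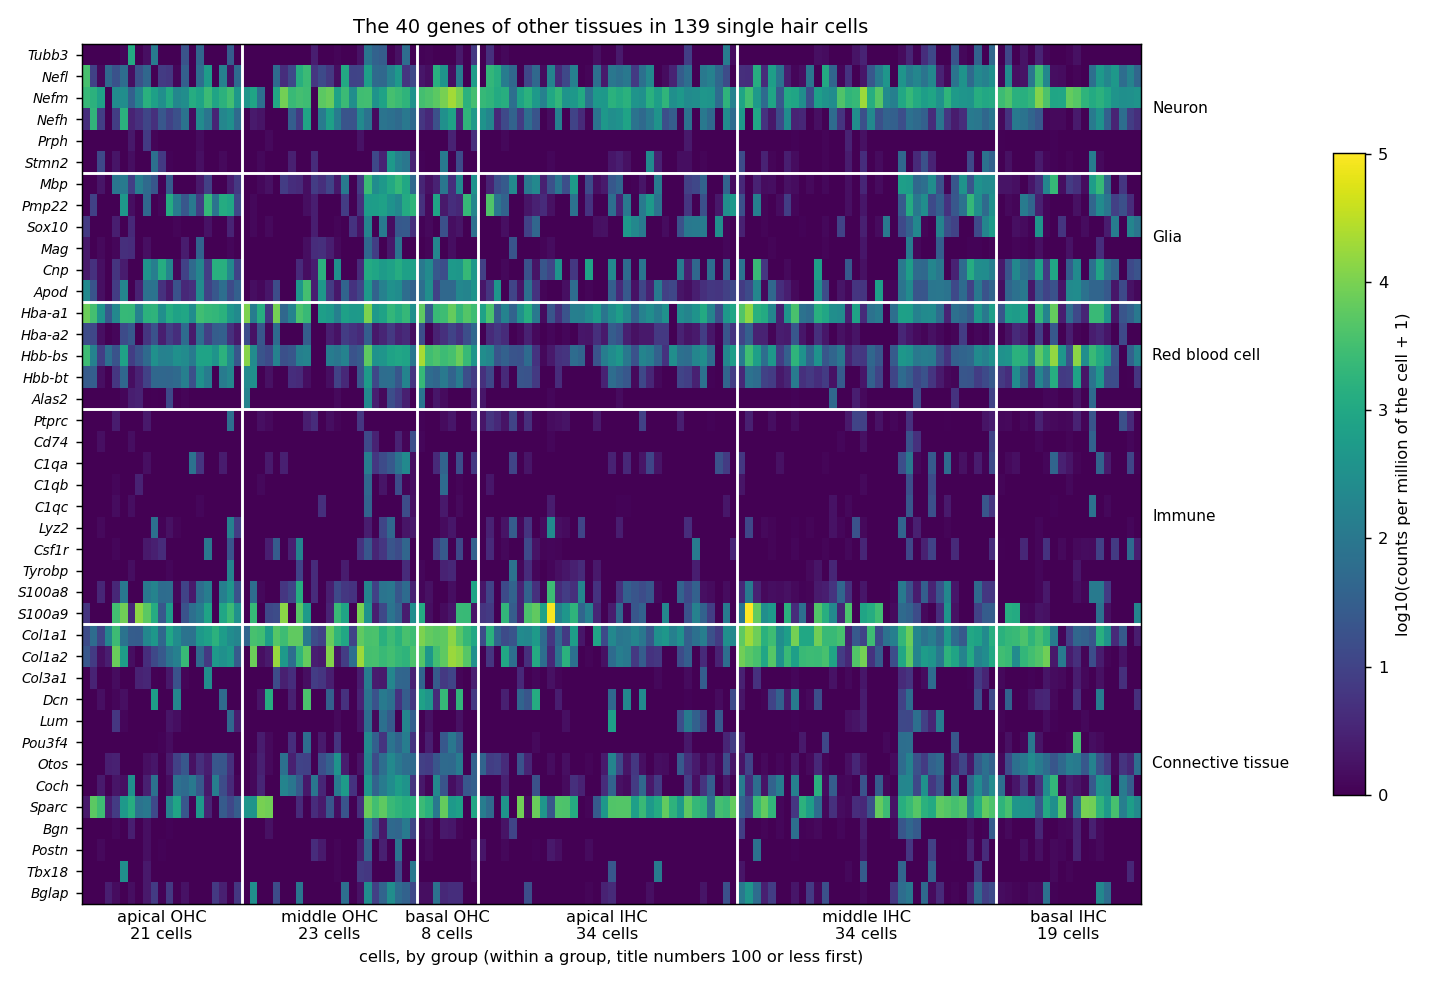
Levels of the 40 members (rows) in all cells (columns) as log10(CPM + 1) of each cell, with OHCs left of IHCs and apex, middle and base in that order, lower-numbered cells standing before higher-numbered cells in each group. Nefm, Hba-a1, Hbb-bs, Col1a1 and Sparc run across all 6 groups, while most immune genes appear in scattered cells.

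Genes of organs outside the ear gave a level for stray reads. Reads on 24 such genes, among them Muc2, a gut mucin, and Tnp2, a sperm nuclear protein, were found in a median of 6.47% of cells per gene and at most in 29.5%. Per gene, the median share of cells with a read was 82.0% for red blood cell genes, 64.7% for glia, 61.9% for neuron, 44.6% for connective and 32.7% for immune genes, and 69.1% for 34 hair cell genes. Deeper cells show more genes, so the cells were also thinned to 582635 counts each, which kept 125 cells and left out 8 of the 52 OHCs and 6 of the 87 IHCs. The medians were then 74.4% for red blood cell, 56.4% for glia, 46.8% for neuron, 33.6% for connective and 15.2% for immune genes, against 2.4% for the organs outside the ear, whose highest gene reached 15.2%. The median immune gene thus stood at the level of the highest of those 24 genes, and the other 4 medians stood above it.

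**Figure D2:**
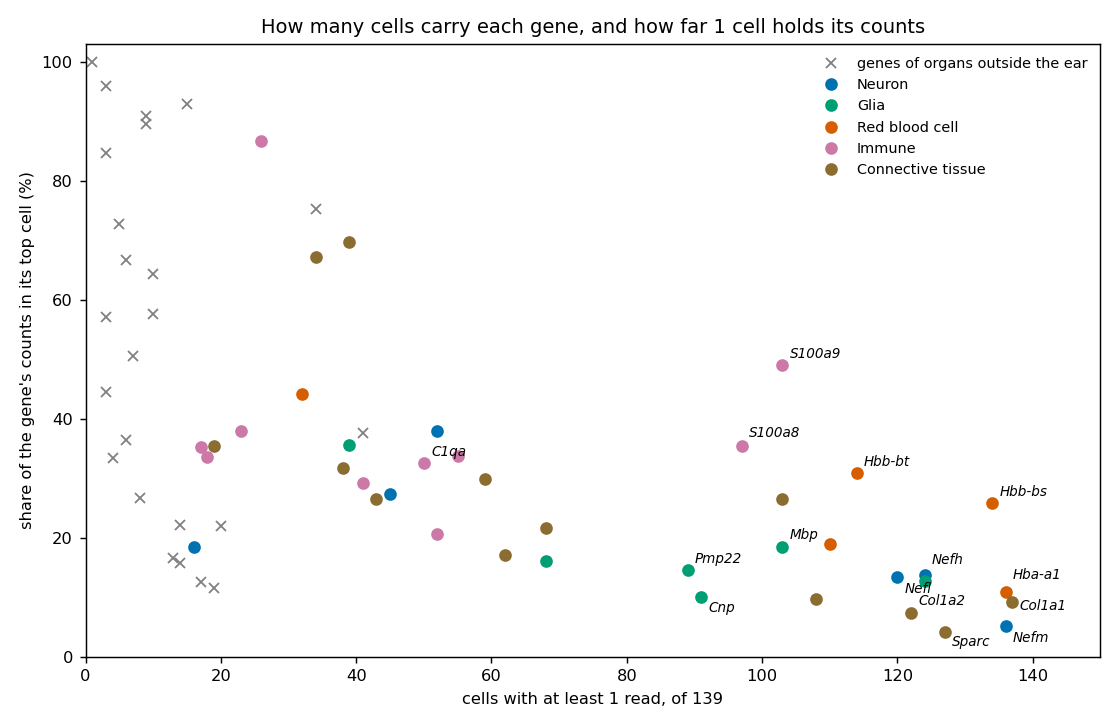
Each point is a gene, placed by the number of cells with at least 1 read (x axis) and by the percentage of the gene's counts held by its highest cell (y axis), with crosses for the 24 genes of organs outside the ear. Sparc and Nefm, each read in over 100 cells, had 4.24% and 5.22% of their counts in their highest cell, while S100a9, also read in over 100 cells, had 49.1% and Tyrobp 86.6%.

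Pooled over the cells of a group and scaled by the trimmed mean of M values (scaled CPM), 36 of the 40 members reached 5 scaled CPM in at least 1 group, and Prph, Ptprc, Cd74 and C1qc did not. Differences are given as log2 of (scaled CPM + 1), and a gene is counted where it differed 2-fold or more. In the mean of the 3 regions 21 of the 36 were higher in OHCs than in IHCs, where 17.3% of 15016 genes were, and 1 was lower, Sox10, where 39.3% of genes were. The 21 comprised 3 neuron, 4 glia, 5 red blood cell, 5 immune and 4 connective genes. Of these, Tubb3, Hba-a2, Alas2, C1qb, Tyrobp and Col3a1 reached 5 scaled CPM in OHC pools only, so the filter favoured a count on the OHC side. Among the immune genes, 1 cell held 99.6% of the apical OHC counts of Tyrobp. In basal OHCs 1 cell held 99.3% of the C1qb counts and 99.7% of the S100a8 counts. In each of the 3 regions taken separately 8 members were 2-fold or more higher in OHCs (1.23% of all genes) and 0 were lower (7.27% of all genes). These 8 were Stmn2, Pmp22, Cnp, Apod, Hba-a1, Hbb-bs, Hbb-bt and Col3a1.

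Along the cochlea, 19 of the 36 were higher in basal than in apical OHCs and 7 were lower, where 17.4% and 47.6% of all genes were. In IHCs 17 were higher in the base and 9 lower, where 26.5% and 31.5% of all genes were. The filter also favoured some of the OHC counts. C1qb, among the 19, reached 5 scaled CPM in basal OHCs only, and Tyrobp, among the 7, in apical OHCs only. A single cell held 93.2, 99.0, 99.1 and 99.3% of the basal OHC counts of Hbb-bt, Mag, Alas2 and C1qb, all among the 19. The median difference of the members was 1.24 for OHC against IHC, 1.28 for base against apex in OHCs and 0.63 in IHCs. Over all genes the medians were -0.59, -0.72 and -0.02. With median-of-ratios size factors the split for base against apex in OHCs was 25 higher and 5 lower, with the median of all genes at -0.38.

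The neuron list reached 100 CPM in nearly every cell, and most of its counts came from the medium neurofilament chain, Nefm. The cells that reached it numbered 133, which is 95.7% (exact binomial 95% interval 90.8 to 98.4%, which takes cells as independent draws). Nefm alone reached 100 CPM in 128 cells. Nefm (GRCm38 chr14:68082590-68124846, minus strand) had 0, 733 and 3049 CPM in the lowest, median and highest apical OHC, 0, 1814 and 8803 in middle OHCs, and 1646, 4878 and 20270.2 in basal OHCs. Among IHCs it had 58.2, 489 and 2299 CPM (apex), 14.3, 859 and 18980.0 (middle) and 309, 1500.0 and 11871 (base). The ranges of all 6 groups overlapped, and the lowest basal OHC stood above the median of every other group except the middle OHCs. The pooled level was 9319.8 scaled CPM in basal OHCs and 2269.8 in basal IHCs, a log2 difference of 2.04, against 0.09 in the apex and 0.30 in the middle.

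The light and heavy neurofilament chains were lower than Nefm in every pool and followed it weakly across all cells. Nefl (chr14:68083863-68089095, plus strand) had medians of 16.1, 11.1 and 66.4 CPM in apical, middle and basal OHCs and 36.7, 65 and 60.7 CPM in the IHCs, with the highest cell at 3569 CPM. Exons of Nefl and Nefm overlap on opposite strands, and without a known strand setting reads from the overlap cannot be told apart. The Spearman correlation of Nefl and Nefm was 0.16, and that of Nefh and Nefm 0.24, over all cells, which share groups and differ in depth. Within groups the correlation with Nefm ran between -0.13 in middle IHCs and 0.45 in middle OHCs for Nefl, and between -0.23 in basal IHCs and 0.52 in apical IHCs for Nefh. Nefh (chr11:4938754-4948064, minus strand) had medians of 10.3, 30.9 and 174 CPM in OHCs of the apex, middle and base, and of 51.2, 15.7 and 4.31 CPM in the IHCs. Its log2 difference between OHCs and IHCs was 2.61 in the base, 0.88 in the middle and 0.06 in the apex. Per kilobase of exon, the mean pooled levels were 446 scaled CPM for Nefm, 44.4 for Nefl and 25.4 for Nefh.

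The other neuron members were read in fewer cells. Stmn2, which regulates microtubules in growing axons, had a median of 0 CPM in every group and reads in 52 cells. Its pooled level was 8.89, 61.6 and 17.8 scaled CPM in apical, middle and basal OHCs and 3.01, 6.95 and 7.21 in the IHCs. A single cell held between 35.9% and 98.5% of a group's Stmn2 counts, so its place among the 8 genes higher in every region rests on few cells. Tubb3, a neuronal tubulin, was read in 45 cells with at most 1126 CPM, and Prph never exceeded 6.04 CPM.

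The glia list reached 100 CPM in fewer cells than the neuron list, though its median gene was read in more cells (64.7 against 61.9%). Cnp, Pmp22 and Apod were 2-fold or more higher in the OHC pool of each region, whereas Mbp and Sox10 were not. For the whole list the log2 difference between OHCs and IHCs was 1.15, 1.76 and 0.74 in the apex, middle and base. In lower-numbered cells it was -0.79, 1.18 and -0.33, and in higher-numbered cells 1.45, 1.76 and 2.30. The list reached 100 CPM in 86 cells, or 61.9% (53.3 to 70.0%). Cnp, an enzyme of myelin-forming cells (chr11:100574904-100591729, plus strand), had 0, 8.22 and 1414 CPM in the lowest, median and highest apical OHC, 0, 1.69 and 1629.7 in middle OHCs and 14.4, 360.1 and 2316 in basal OHCs. In IHCs it had 0, 0.144 and 799.9 CPM (apex), 0, 1.39 and 2442 (middle) and 0, 34.1 and 931 (base). All groups overlapped, and only the basal OHCs had Cnp reads in every cell. Log2 differences between OHCs and IHCs were 1.70, 1.99 and 1.36 in the apex, middle and base. Exons of Cnp overlap those of Dnajc7 on the other strand.

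Pmp22, a protein of peripheral myelin (chr11:63128982-63159547, plus strand), had its highest cell between 1871 and 2309 CPM in the 3 OHC groups, and at 4165, 2174 and 261 CPM in apical, middle and basal IHCs. Medians were at most 10.6 CPM in any group, and pooled levels were 281, 452 and 86.4 scaled CPM in apical, middle and basal OHCs and 65.3, 163 and 24.2 in the IHCs, differences of 2.09, 1.47 and 1.79. It was the member higher in all 3 regions that was lower in the base than in the apex of both types, with log2 differences of -1.69 in OHCs and -1.39 in IHCs. Apod, a lipid carrier made by Schwann cells, was read in 124 cells. It had medians of 12.9, 13.6 and 122 CPM in apical, middle and basal OHCs and 3.38, 12.2 and 23.5 CPM in IHCs, with log2 differences of 2.01, 1.65 and 2.27. Mbp, myelin basic protein, had medians of 1.21, 6.53 and 2.9 CPM in apical, middle and basal OHCs and of 5.04 in apical and 0.991 in basal IHCs, with the middle IHCs below 1. It was more uneven, with log2 differences between OHCs and IHCs of -0.88, 2.27 and -0.95 in the 3 regions. Its highest cell reached 2583 CPM.

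Sox10, a transcription factor of glia and of some cochlear epithelium, went the other way in the pools. It had 0.298, 23 and 11.2 scaled CPM in apical, middle and basal OHCs and 81.1, 43.2 and 46.5 in the IHCs, a mean log2 difference of -2.94. Reads were found in 68 cells. The Sox10 medians did not show this: they were 0, 0.182 and 0.422 CPM in OHCs and 0, 0.138 and 0.238 in IHCs. A single cell held 41.3, 36.8 and 36.7% of the Sox10 counts of apical, middle and basal IHCs. Mag, a protein of the inner myelin surface, was read in 39 cells with at most 202 CPM. Spearman correlations of Pmp22 and Mbp in the middle of the cochlea were 0.74 over 23 OHCs and 0.87 over 34 IHCs, but differed between the title-number series. They were -0.75 in 7 higher-numbered and 0.32 in 16 lower-numbered middle OHCs, and 0.22 in 13 higher-numbered and 0.77 in 21 lower-numbered middle IHCs.

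Red blood cell genes were the list with the largest mean log2 difference between OHCs and IHCs, 2.04, with 2.01, 1.59 and 2.52 in the apex, middle and base. In the lower-numbered cells of the middle the difference was -1.38, and in the higher-numbered cells 3.04. Hba-a1 and Hba-a2 code for alpha globin and Hbb-bs and Hbb-bt for beta globin. Within each pair the coding sequences differ at 1 base, of 429 in the alpha and 444 in the beta pair (99.8% identity each). Only 11.1% of coding windows of 43 bases, the length of the sequenced end in the labels, are particular to a gene in the alpha pair and 6.97% in the beta pair, so the split of counts within a pair is uncertain. The stretches that hold the differing base, in capitals, are shown for that reason; they lie in the last coding exon, are written 5′ to 3′ on the gene's strand and come from the GRCm38 reference at chr11:32297101-32297160 (Hba-a2, plus), chr11:32284284-32284343 (Hba-a1, plus), chr7:103812683-103812742 (Hbb-bt, minus) and chr7:103826692-103826751 (Hbb-bs, minus).
Hba-a2: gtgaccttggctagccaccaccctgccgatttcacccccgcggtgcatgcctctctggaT
Hba-a1: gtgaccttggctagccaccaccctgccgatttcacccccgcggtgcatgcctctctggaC
Hbb-bt: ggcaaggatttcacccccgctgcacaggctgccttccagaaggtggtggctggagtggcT
Hbb-bs: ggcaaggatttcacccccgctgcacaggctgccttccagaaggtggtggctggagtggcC

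Hba-a1 had reads in 136 cells. It had 23.3, 1266 and 7762 CPM in the lowest, median and highest apical OHC, 0, 641 and 10417 in middle OHCs and 26.5, 2850.1 and 6686 in basal OHCs. IHCs had 0, 175 and 3816 CPM (apex), 0, 222 and 14827 (middle) and 1, 99.1 and 6605 (base). The OHC median was above the IHC median in every region, although all ranges overlapped, and the pooled log2 differences were 2.05, 1.52 and 2.46 in the apex, middle and base.

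Hbb-bs was the member with the steepest base-to-apex difference among the globins. It had 7.01, 167 and 2748 CPM in apical OHCs, 0, 141 and 12502 in middle OHCs and 408, 3284 and 22234 in basal OHCs. In IHCs it had 0, 56.2 and 609.7 CPM (apex), 0, 56.6 and 3032 (middle) and 0, 422 and 15643 (base). The basal pool was higher than the apical by 5.35 in OHCs and by 4.61 in IHCs on the log2 scale. Of the basal OHC counts of Hbb-bs, 71.0% came from basal OHC cell 3. For the whole list, the base against apex difference in OHCs was 3.61, and 2.29 with the deepest cell of every group left out. The difference between OHCs and IHCs in the base was 2.52, and 1.11 without those cells.

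The balance of the beta and alpha chains in the base differed from that in the apex with both title-number series pooled, but not in the higher-numbered OHCs. In 120 cells with at least 10 counts of each, the median log2 ratio of Hbb-bs to Hba-a1 was -1.84, -1.45 and 0.37 in apical, middle and basal OHCs, and -1.47, -0.98 and 1.35 in the IHCs. Hbb-bs stood above Hba-a1 in 30 of the 120 cells, 4 of them among the 8 basal OHCs and 13 among 18 basal IHCs. In higher-numbered OHCs the median ratio was -1.68, -0.91 and -1.88 in the apex, middle and base, the last from 2 cells, and in lower-numbered OHCs -3.94, -2.54 and 1.33. In basal IHCs it was 0.01 in the higher-numbered and 2.41 in the lower-numbered cells. Across all cells the Spearman correlation of the pair was 0.60 (0.86 in the 58 higher-numbered and 0.52 in the 81 lower-numbered cells). Hbb-bt had medians of 31.7, 3.43 and 51.6 CPM in apical, middle and basal OHCs and 2.23, 6.87 and 13.4 in the IHCs, with pooled log2 differences of 2.50, 2.13 and 2.69, and basal OHC cell 3 held 93.2% of its basal OHC counts. The pooled ratio of counts was 0.0833 for Hbb-bt to Hbb-bs and 0.00614 for Hba-a2 to Hba-a1. Alas2, the enzyme that starts haem synthesis in red cells, was read in only 32 cells, with 44.2% of its counts in 1 of them.

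**Figure D3:**
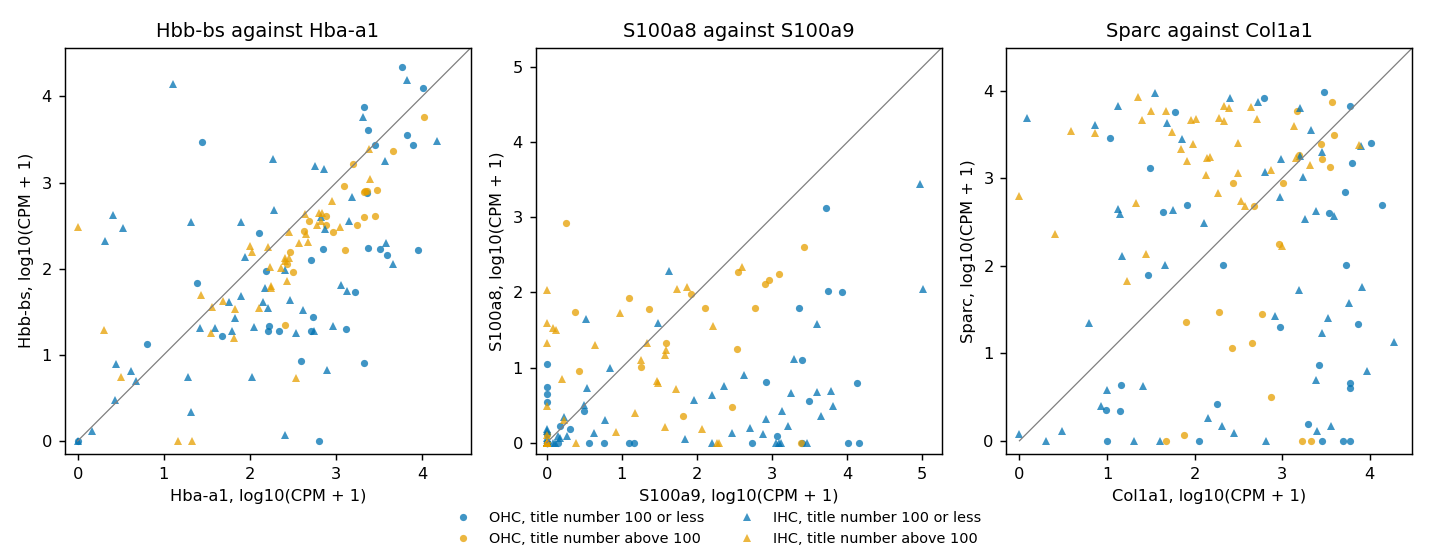
Each point is a cell, a circle for an OHC and a triangle for an IHC, with CPM on log axes for Hbb-bs against Hba-a1, S100a8 against S100a9 and Sparc against Col1a1. The globins lie along a band (Spearman correlation 0.60), whereas Sparc and Col1a1 show no shared order (-0.01).

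Immune genes were the most concentrated list, and S100a9, a subunit of calprotectin (chr3:90692632-90695721, minus strand), made up 80.1 to 96.9% of their counts in each group. S100a9 had 0, 129 and 14176 CPM in the lowest, median and highest apical OHC, 0, 13.6 and 13519.6 in middle OHCs and 0, 0.909 and 2502 in basal OHCs. In IHCs it had 0, 24.8 and 93014 CPM (apex), 0, 33.9 and 101953 (middle) and 0, 0 and 1309.7 (base). Every group held cells without a read, and the extremes were far above the medians. Apical IHC cell 27 held 49.1% of the S100a9 counts of all cells and 83.3% of those of its group. With the cell holding the most counts of the list left out of each group, the list's OHC against IHC difference in the apex was 0.56, against -1.46 with it. The mean over regions was then 1.38 against 0.54, and base against apex in IHCs was -2.62 against -4.48.

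S100a8, the partner subunit, followed only in part. It was read in 97 cells, of which 83 also had S100a9 reads. Medians of S100a8 were 9.12, 5.16 and 0.113 CPM in apical, middle and basal OHCs and 3.77, 1.36 and 0 in the IHCs. The pooled ratio of S100a8 to S100a9 was 0.340 in the higher-numbered and 0.0186 in the lower-numbered cells. C1qa, a complement chain made by macrophages, came next in level, with reads in 50 cells, 5, 40.8 and 9.76 scaled CPM in apical, middle and basal OHCs and 1.44, 8.63 and 4.86 in the IHCs, and its partner chains C1qb and C1qc were read in 17 and 23 cells. The general leukocyte marker Ptprc was read in 55 cells but never exceeded 65.2 CPM, and the antigen-presentation gene Cd74 was read in 18 cells with at most 36.5 CPM. Lyz2, a lysozyme of myeloid cells, reached 255 CPM, Csf1r, the macrophage growth factor receptor, 183 CPM and Tyrobp, a myeloid signalling adaptor, 174 CPM. Of the Tyrobp counts, 86.6% came from apical OHC cell 11.

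Connective tissue genes were the most abundant list and the highest in middle and basal OHCs. Col1a1 (chr11:94936224-94953042, plus strand) had 9.72, 189 and 2654 CPM in the lowest, median and highest apical OHC, 8.84, 2826 and 7417 in middle OHCs and 1017, 5645 and 13700.1 in basal OHCs. In IHCs it had 0, 92.4 and 1564 CPM (apex), 2.02, 854 and 18897 (middle) and 0, 127 and 3901 (base). The OHC median was above the IHC median in each region, most in the base, where the lowest OHC lay above the IHC median. The pooled levels were 10356 scaled CPM in basal OHCs and 918 in basal IHCs, a log2 difference of 3.49. The differences in the apex and middle were 1.34 and 0.49.

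Col1a2, the other collagen I chain, had medians of 23.6, 2005 and 4734 CPM in apical, middle and basal OHCs and 4.67, 887 and 3.68 in the IHCs. Its Spearman correlation with Col1a1 was 0.63 over all cells and ran within groups between 0.07 in apical IHCs and 0.74 in basal IHCs, and the pooled ratio of the chains was 1.01. Sparc, a collagen-binding protein of bone and many matrix-making cells (chr11:55394500-55423183, minus strand), did not follow them. It had 0, 26.8 and 5638 CPM in apical OHCs, 0, 20.8 and 9602 in middle OHCs and 0, 789 and 6753 in basal OHCs. In IHCs it had 0, 1166 and 8354 CPM (apex), 0, 1171 and 6646 (middle) and 1.53, 486 and 9426 (base). Its median was higher in IHCs than in OHCs in the apex and middle, and the pooled differences between OHCs and IHCs were -2.98, 0.02 and 0.39. The pooled ratio of Sparc to Col1a1 was 0.823 in apical OHCs and 16.5 in apical IHCs.

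Col3a1, collagen III of loose tissue, was higher in OHCs in all 3 regions, by 2.19, 3.13 and 4.02, but at low levels: the highest OHC had 289.7 CPM and the highest IHC 57.9 CPM. It was read in 59 cells, with 10.4, 30.1 and 21.1 scaled CPM in apical, middle and basal OHCs and 1.5, 2.55 and 0.365 in the IHCs. Only its OHC pools thus reached the 5 scaled CPM of the filter. A single cell held 75.3, 48.3 and 84.7% of the Col3a1 counts of apical, middle and basal OHCs, so the pooled differences rest largely on few cells. The Col3a1 medians were 0, 1.45 and 3.73 CPM in these OHCs and 0 in each IHC group. Dcn, the proteoglycan decorin, had medians of 0, 2.18 and 205 CPM in apical, middle and basal OHCs and 0 in each IHC group, with reads in 62 cells. The genes best known from cochlear fibrocytes differed among themselves. Otos, made by fibrocytes of the spiral ligament, had 5.55, 68.8 and 57.9 scaled CPM in OHCs and 10.2, 18.1 and 65.2 in IHCs of the apex, middle and base. Coch, a matrix protein of those fibrocytes, had 41, 161 and 19.1 scaled CPM in OHCs and 6.3, 85.9 and 185 in IHCs. A single cell held 74.9% of the basal IHC counts of Coch, and the median was 4.25 CPM in basal IHCs against 10.2 in basal OHCs. Pou3f4, a transcription factor of the ear's mesenchyme, had 69.7% of its counts in basal IHC cell 18, at 3041 CPM. The matrix genes Lum, Bgn and Postn, the fibrocyte factor Tbx18 and the bone gene Bglap were read in 38, 43, 34, 19 and 68 cells.

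Summed by tissue, the cell-to-cell ranges of the groups overlapped for every list, and with both title-number series pooled the basal OHCs had the highest medians of all 5. Within series this did not hold for 2 of the lists. The lower-numbered basal OHCs had an immune median of 67.0 CPM, against 294.7 in lower-numbered middle IHCs. The 2 higher-numbered basal OHCs had a connective median of 4643 CPM, against 9620.6 in higher-numbered middle OHCs and 4955 in middle IHCs. The neuron list had medians of 1149, 2078 and 5796 CPM in apical, middle and basal OHCs and 717, 1345 and 1609 in the IHCs. The glia medians were 238, 162 and 741 CPM in OHCs and 189, 82.8 and 216 in IHCs. Medians of the red blood cell list were 1495, 858 and 6712 CPM in OHCs and 279.7, 384 and 883 in IHCs. The immune medians were 194, 170.0 and 509 CPM in OHCs and 39.8, 66.5 and 7.15 in IHCs. For the connective list they were 1044, 8769.8 and 13580.4 CPM in OHCs and 1760.1, 5010.1 and 3876 in IHCs. The hair cell genes ran the other way in OHCs, with medians of 15243, 4851 and 876 CPM, while the IHC medians were 13024, 11520.0 and 14456 CPM. Counting error of the pooled list levels was at most 1.51% either way.

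**Figure D4:**
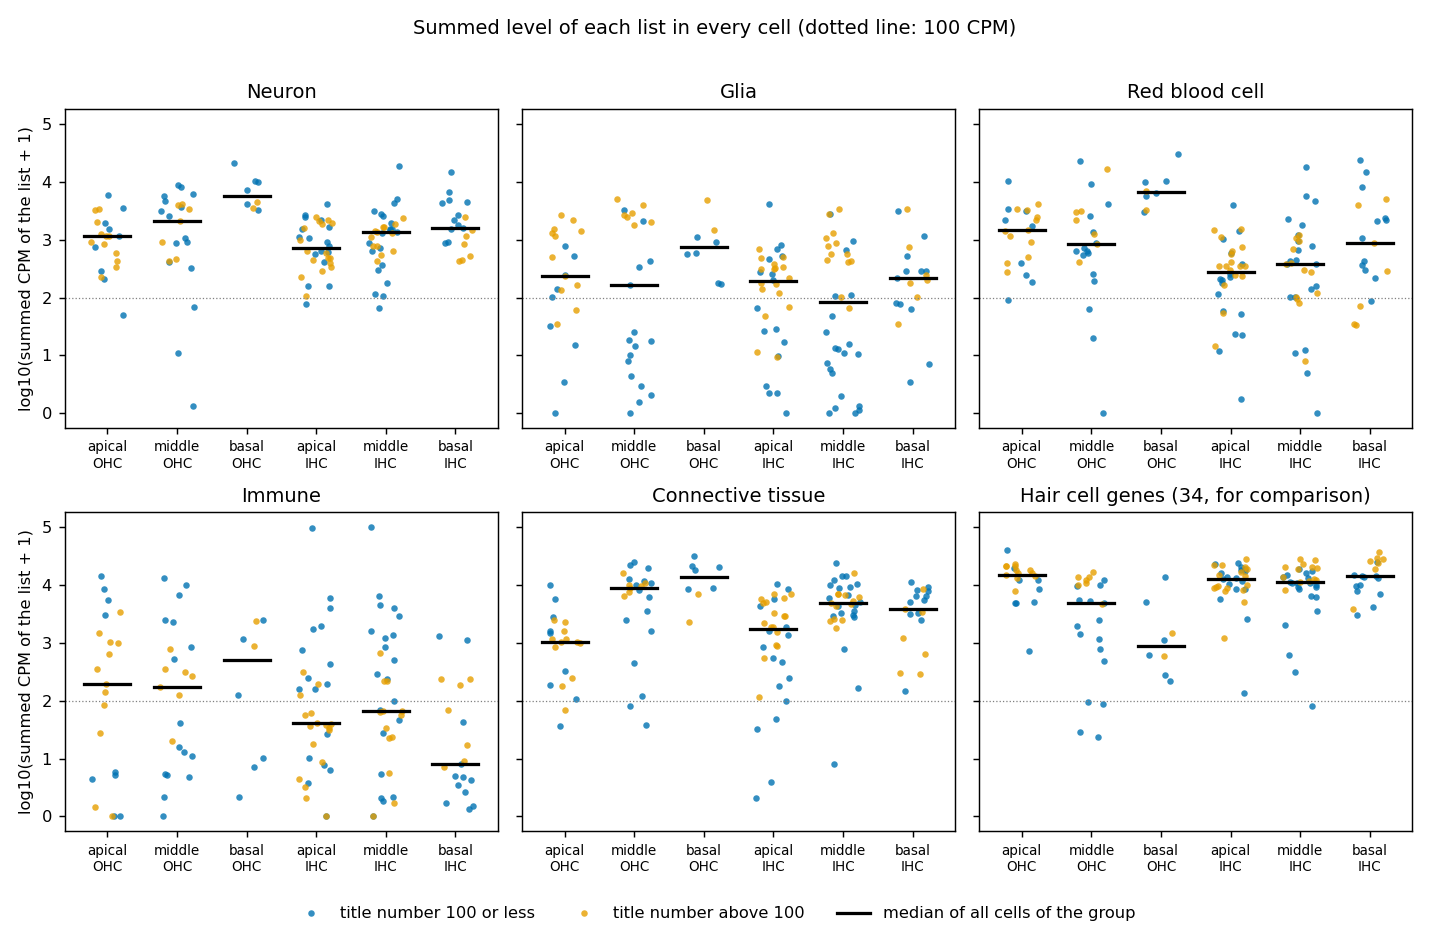
Summed CPM of each tissue list and of 34 hair cell genes per cell (log axis) in the 6 groups, OHCs left of IHCs, with blue points for lower-numbered cells, orange for higher-numbered cells, black bars for medians and a dotted line at 100 CPM. Basal OHCs sit highest in the neuron, glia, red blood cell, immune and connective panels by the medians of both series together, and lowest in the hair cell panel.

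Single cells reached 100 CPM in several lists at once, which 1 gene per list can bring about. Of all cells 40 reached 100 CPM in all 5 lists, 44 in 4, 45 in 3, 7 in 2 and 3 in 1. Nefm alone reached 100 CPM in 128 cells, against 133 for the whole neuron list. S100a9 made up 80.1 to 96.9% of the immune counts in each group, whereas the leading glia gene made up 31.5 to 48.9%. Tubb3 reached 100 CPM in 3 cells, and Prph, Ptprc and Cd74 did so in no cell. The red blood cell list reached 100 CPM in 83.5% of cells (interval 76.2 to 89.2%), the immune list in 46.0% (37.6 to 54.7%) and the connective list in 92.8% (87.2 to 96.5%). Basal OHC cell 7 was the highest cell for the neuron list, at 21035 CPM, and for the connective list, at 32157 CPM, and had 220.3 CPM of hair cell genes. Middle IHC cell 30 had 19003 CPM of neuron genes, nearly all Nefm, with 80.6 CPM of hair cell genes. Not every high cell was poor in hair cell genes. Basal OHC cell 3, the highest for the red blood cell list at 30358 CPM, had 13776 CPM of hair cell genes, the most of its group. Apical IHC cell 27, with 96025 CPM of immune genes, had 11695 CPM, near its group's median of 13024.

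Some high shares came from shallow libraries. Middle OHC cell 8 had 23245 CPM of red blood cell genes in 71027 counts and 681 genes, with 28.2 CPM of hair cell genes. Middle IHC cell 15 had 102077 CPM of immune genes together with 17967 CPM of red blood cell and 24459 CPM of connective genes in 558030 counts, and 616 CPM of hair cell genes. Basal OHC cell 1 had 4804 CPM of glia genes in 134269 counts. Apical IHC cell 19 was deeper than these, at 1003362 counts. It had 4172 CPM of glia genes, of which Pmp22 gave 4165, beside 18908 CPM of hair cell genes.

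Members outweighed the 34 hair cell genes in 56 cells, or 40.3%. This was so in 7 of 21 apical, 18 of 23 middle and 8 of 8 basal OHCs, and in 6 of 34 apical, 11 of 34 middle and 6 of 19 basal IHCs. Within groups the share of all members and the share of hair cell genes were ranked in opposite order to differing degrees. The Spearman correlation was -0.42 in apical (n = 21), -0.19 in middle (n = 23) and -0.36 in basal OHCs (n = 8), and -0.25 (n = 34), -0.24 (n = 34) and -0.85 (n = 19) in the IHCs. In apical OHCs it was weaker within each series, at -0.05 in 9 lower-numbered and -0.17 in 12 higher-numbered cells. Lower-numbered and higher-numbered cells gave -0.26 and -0.64 in middle OHCs, -0.02 and -0.57 in apical IHCs and -0.28 and -0.25 in middle IHCs. The lower-numbered basal OHCs gave -0.31, and the higher-numbered ones were too few. Cells are points that share a group, and shares of the same total pull against each other. In thinned cells the values were -0.34, 0.02 and -0.32 in OHCs and -0.41, -0.16 and -0.86 in IHCs. The 34 hair cell genes include some that mark a single type, such as Otof and Slc26a5. With 22 hair cell genes of both types the values were -0.38, -0.10 and -0.33 in OHCs and -0.07, -0.28 and -0.76 in IHCs. With the number of hair cell genes read they were -0.39, -0.15 and 0.05 in OHCs and -0.03, -0.13 and -0.50 in IHCs. The hair cell share itself went with depth, with correlations to total counts of 0.47, 0.83 and 0.36 in OHCs and 0.22, 0.48 and 0.43 in IHCs, and the part of depth in the relation was not tested.

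For all members the correlation was most negative in the basal IHCs. For the neuron list it was most negative in basal OHCs (-0.67, n = 8), and for the immune list in apical OHCs (-0.25). In basal IHCs the correlation with the hair cell share was -0.79 for the red blood cell list, -0.60 for the neuron list, -0.53 for the connective list, -0.44 for the glia list and -0.02 for the immune list. By series, the values in 7 higher-numbered and 12 lower-numbered cells were -0.75 and -0.85 for red blood cell, -0.93 and -0.06 for neuron, -0.93 and -0.18 for connective, -0.82 and -0.46 for glia and -0.39 and -0.69 for immune genes. For all members they were -0.93 and -0.78. Over the 6 groups the median correlation was -0.22 for connective, -0.17 for neuron, -0.05 for red blood cell, -0.03 for immune and 0.07 for glia genes. Between lists, the median within-group correlation was highest for red blood cell with connective genes, at 0.32, and for glia with immune genes, at 0.31.

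**Figure D5:**
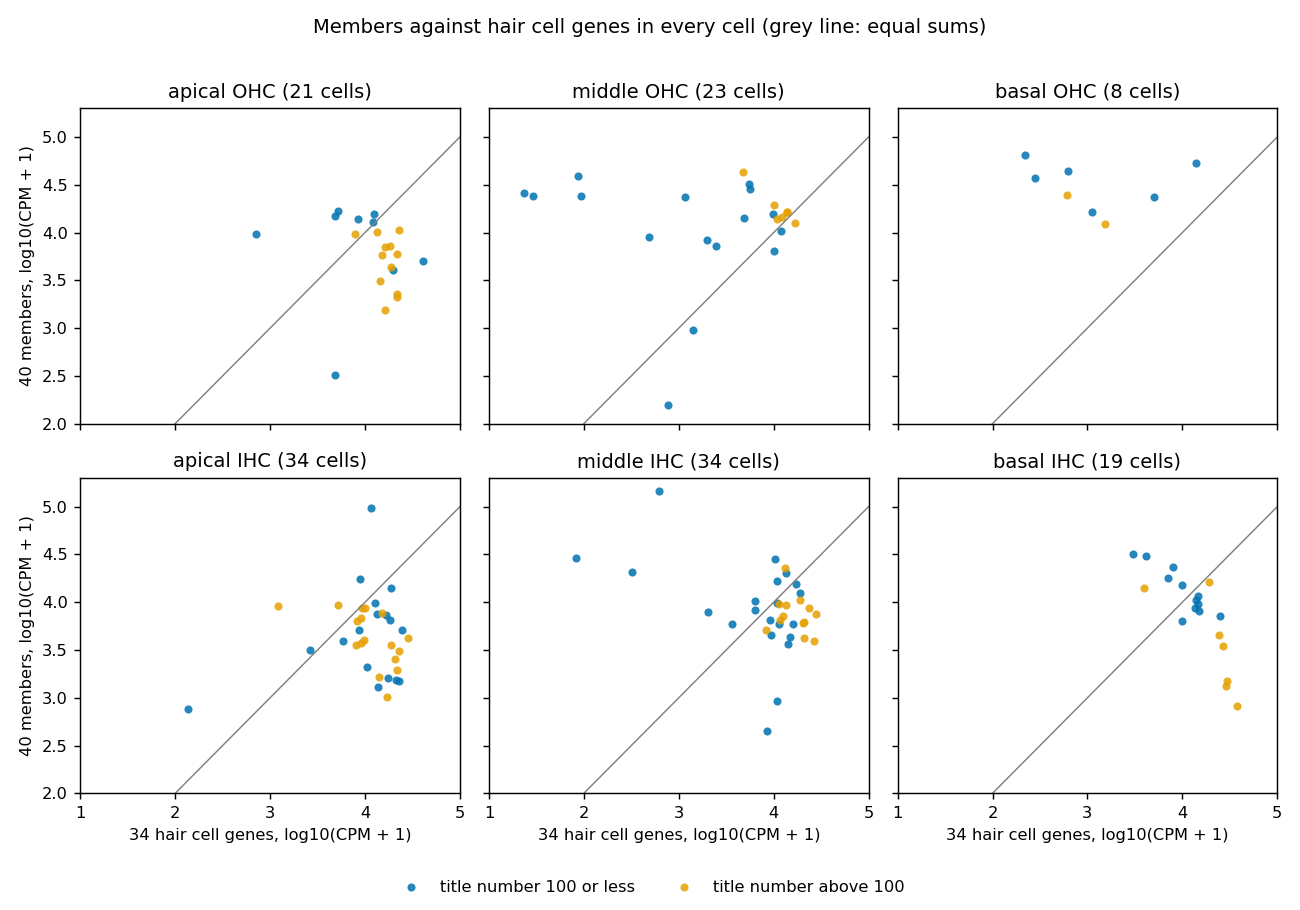
Each point is a cell, placed by its summed CPM of the 34 hair cell genes (x axis) and of the 40 members (y axis) on log axes, 1 panel per group, with a grey line where the sums are equal. All 8 basal OHCs lie above the line, against 6 of 19 basal IHCs.

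The title-number series differed in these values. Members outweighed hair cell genes in 13 of 58 higher-numbered cells (22.4%) and in 43 of 81 lower-numbered cells (53.1%). The 7 higher-numbered middle OHCs stood apart: they had reads on 31 to 36 of the 40 members, with a median of 33, where the 16 lower-numbered middle OHCs had 8 to 27, with a median of 18. Their totals were 6514854 to 12100685 counts, against a median of 762541 in the lower-numbered cells, so depth moved with this difference. Within the higher-numbered cells the mean difference between OHCs and IHCs was 1.20 for neuron, 1.84 for glia, 2.27 for red blood cell, 2.87 for immune and -0.01 for connective genes. Within the lower-numbered cells it was 0.01, 0.02, 0.68, -0.07 and 0.14 in the same order. In the pool of both series it was 0.80, 1.22, 2.04, 0.54 and 0.63. For 3 of the lists the pooled values of apex, middle and base lay far apart. They were 0.13, 0.33 and 1.95 for neuron, -1.46, -0.16 and 3.23 for immune and -0.93, 0.50 and 2.33 for connective genes. The higher-numbered cells included only 2 basal OHCs. The base against apex difference of the red blood cell list was 1.09 in higher-numbered and 3.53 in lower-numbered OHCs, and 0.91 and 4.01 in the IHCs, above 0 in each.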

How the data were processed

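Raw counts per gene, with 1 column for each single cell, are what the authors deposited. Trimmomatic, HISAT2, featureCounts, Subread 1.4.6 and the build GRCm38 (mm10) are named in the submitters' processing notes; not given in the sources used here are the role of each tool, the strand setting, the handling of reads with several matches and whether molecular identifiers were used. As no animal is named in the labels, a group counts as 1 sample and nothing was tested. Members and gene lists were chosen with earlier results of these data known. CPM of a cell is its count per 1000000 of its own total. For groups, counts were summed and scaled with edgeR 4.0.16 (TMM) in R 4.3.3, a gene passed at 5 scaled CPM in at least 1 group, and differences used a pseudocount of 1 CPM. DESeq2 1.42.0 gave the median-of-ratios size factors of an alternative. The rest was done in Python 3.11.15 with pandas 2.3.3, and the steps were tested on simulated data. Rows without a symbol numbered 181 and held 0.00885% of counts; 0 value columns were left unused. Coordinates are those of GRCm38 in the GENCODE annotation. Values in all groups are given for the 3 members of each list with the highest mean scaled CPM and for members 2-fold or more apart between OHCs and IHCs the same way in all 3 regions; cells are named where they are among the 3 highest for a list, and a further few members and cells were named after their values were seen. Other alternatives changed the scaling, filter, pseudocount and carrier threshold, left out the deepest or highest cell, weighted cells alike or took each title-number series alone. Intervals are exact (95%). Poisson intervals cover counting error only. Clopper-Pearson intervals on shares of cells take the cells as independent draws, and neither kind covers differences between animals.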

Additional observations from a re-analysis of the deposited data

Results flagged for a closer look

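Among the 8 basal OHCs, 4 of 7 summed measures had a highest cell far from the rest, judged by the gap to the next cell over the whole range. The limit used is one that chance passes in about 5% of groups of normally spread values. These sums are skewed and cells rather than samples were judged, so the rate here is not known. Basal OHC cell 7 had 21035 CPM of neuron genes, where the next cell had 10393 CPM. Basal OHC cell 1 had 4804 CPM of glia genes, where the next had 1478 CPM. Basal OHC cell 3 had 30358 CPM of red blood cell genes, where the next had 10342 CPM, and the same cell had 13776 CPM of hair cell genes, where the next had 5036 CPM.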

How the results depend on the processing

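Over 192 alternatives to 33 results, the 40 for OHC against IHC and the 15 for cells at 100 CPM stayed within 1 SD of the single cells or within 1.5 times the count. That SD is wide (1.70 to 4.01 on the log2 scale for OHC against IHC), so this says little about stability: in lower-numbered cells the difference was 0.01 for neuron and 0.02 for glia genes (0.80 and 1.22 in the pool), and the immune difference was 2.87 in higher-numbered and -0.07 in lower-numbered cells (0.54). For base against apex 75 did so and 5 did not. In OHCs the red blood cell difference was 2.20 with each cell weighted alike and 1.09 in higher-numbered cells (3.61 in the pool), and the connective difference was 0.97 in higher-numbered cells (3.82). In higher-numbered IHCs the neuron difference was -0.46 (1.44 in the pool) and the immune difference 0.64 (-4.48), both of the opposite sign. Within that SD, the sign also turned for connective genes in higher-numbered IHCs (-0.59, 0.56 in the pool) and for immune genes in OHCs (0.20 in the pool) with library totals (-0.28), each cell alike (-1.09), the deepest cells left out (-0.29), the highest cells of the list left out (-0.01) and lower-numbered cells (-1.44), and for connective genes between OHCs and IHCs in higher-numbered cells (-0.01, 0.63 in the pool). Without the deepest cell of each group 2 members were 2-fold or more lower in OHCs than in IHCs (1 in the pool), and with a filter of 20 CPM 4 members were lower in basal than in apical OHCs (7). The median correlation with the hair cell share was -0.19 for immune and -0.72 for connective genes in higher-numbered cells (-0.03 and -0.22), and 0.11 for connective genes with the number of hair cell genes read. The causes were not tested. No paired analysis was possible because the results come from no test, and the labels do not say whether a title number that recurs in several groups links their cells. With 8 basal OHCs, and no animal named, differences between groups cannot be told apart from differences between cells or animals.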

Other observations

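Wider lists of the same tissues gave a few further values. Igfbp5, a binding protein of insulin-like growth factors, was read in every cell and was higher in IHC pools, with 1462, 597 and 539 scaled CPM in apical, middle and basal OHCs and 5362, 3792 and 10510.1 in the IHCs. Camp, a neutrophil granule peptide, was read in 54 cells.

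Supporting cell genes had medians of 357, 419 and 1450.4 CPM per cell in apical, middle and basal OHCs and 2257, 1064 and 647 CPM in the IHCs. Genes of capillary cells were low, with medians of 4.79, 38.2 and 19.2 CPM in OHCs and 5.20, 5.35 and 2.80 CPM in IHCs. Rgs5, a pericyte gene, was read in 31 cells with 51.6% of its counts in 1 of them. Kcnj10, a potassium channel of the stria vascularis and of glia, was read in 62 cells.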
